A study of Mus musculus with 9 samples.

Results

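Cells homozygous for the ∆G allele of the retinoblastoma gene Rb1, which is altered at the site where its protein contacts E2F transcription factors, were compared with cells that have no Rb protein (null), to describe which expression differences remain when a protein without that contact is present. The comparison takes 6 of the 9 arrays of the series: 3 of genotype Rb ∆G/∆G and 3 of genotype Rb -/-, chosen by the genotype label. The 3 Rb +/+ arrays (wild type, WT) serve as a second reference. All cells were mouse embryonic fibroblasts, primary connective tissue cells grown from embryos. In every group the same number of cells was plated in a 15 cm dish and given medium with 0.1% serum after 24 h, so serum withdrawal is shared by mutants and controls. The series describes the 3 genotypes as littermate paired but does not say which arrays share a litter, and neither the embryo's age nor its strain was given in the sources used here. Of 19938 genes with a single symbol on the array, the 19106 on autosomes are described, each through its brightest probe set.

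The null arrays did not differ from the ∆G arrays by genotype alone. Xist, the RNA that coats the inactive X chromosome of female cells, had log2 signals of 4.24, 4.25 and 4.30 in ∆G and 11.64, 11.98 and 11.52 in null. The Y-linked gene Eif2s3y read 9.40, 9.42 and 9.42 in ∆G and 3.52, 3.53 and 3.58 in null. Sex pattern and genotype therefore cannot be told apart between these groups, and WT replicate 3 carried the null pattern while WT replicates 1 and 2 carried that of ∆G. The only way to separate them was a fit with the mean of 3 Y-linked genes as a covariate, which rests on how WT replicate 3 differs from the other WT arrays. Its median standard error over genes was 0.16 against 0.088 without it. ∆G replicate 3 also stood apart from its group. On the axis that held 51.8% of the variance between arrays it lay at -0.30, with the other ∆G arrays at -13.9 and -11.5, WT from -21.3 to -14.7 and null from 24.2 to 27.4. Results are given with each array left out where that mattered.

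The retinoblastoma protein holds cells out of the cycle by binding E2F factors at the promoters of genes needed for DNA synthesis, and by recruiting chromatin regulators there. Its relatives p107 and p130 bind other E2Fs and, within the DREAM complex, act on mitotic genes through a promoter element called CHR. The protein has further partners that it contacts outside the common E2F site, among them a second contact with E2F1, chromatin enzymes and tissue-specific transcription factors.

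Rb1 itself was higher in ∆G than in null. Its log2 signal was 9.53, 9.76 and 9.54 in ∆G, 8.18, 8.58 and 8.19 in null and 8.93, 9.17 and 9.16 in WT. Every ∆G array lay above every null and every WT array, but the difference from WT was not called (log2 0.53, limma adjusted p = 0.075). The difference from null was 2.45-fold (log2 1.30, SE 0.12, limma adjusted p = 0.00021). It was also called with the Y-linked covariate (log2 1.38, adjusted p = 0.046). Where in Rb1 the null allele is broken was not given in the sources used here, so the signal that remained in null checks nothing. Of the 50 measured genes nearest to Rb1 on chromosome 14, taken as 25 on each side, 3 were higher and 2 lower in ∆G, a share near the 8.70% called among all autosomal genes, with a median log2 difference of 0.0059.

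Over all autosomal genes, 1663 of 19106 (8.70%) differed between ∆G and null at an adjusted p under 0.05. Of these, 852 (4.46%) were higher in ∆G and 811 (4.24%) lower, and the median of all genes was -0.0074. For scale, on the same arrays 156 genes (0.816%) differed between ∆G and WT, of which 115 (0.602%) were higher and 41 (0.215%) lower in ∆G. Between null and WT 3526 (18.5%) differed, 1600 (8.37%) higher and 1926 (10.1%) lower in null. These comparisons share arrays with the first. Changes were mostly moderate, with a median size of 0.50 on the log2 scale among the called genes. A change of at least 2-fold was seen for 81 of the higher and 57 of the lower genes, and of at least 4-fold for 5 and 2. The groups did not overlap for 1654 of the called genes, and for 5178 (27.1%) of all genes. The count fell to 732 without ∆G replicate 1, 849 without ∆G replicate 2 and 810 without null replicate 1. The genes called lower fell to 319, 387 and 360 in those fits and to 522 without null replicate 2, and those called higher to 413, 462 and 450, and to 537 without null replicate 3. With the Y-linked covariate 49 genes were called, 41 of them among the 1663, and 1652 of the 1663 kept their sign.

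The largest difference was that of Serpina3n, which encodes a secreted serine protease inhibitor. Its signal was 10.45, 10.85 and 10.73 in ∆G, 6.82, 7.04 and 7.21 in null and 10.53, 10.17 and 10.12 in WT. The ∆G arrays lay among or above the WT arrays, and no null array came near them. The difference from null was 12.6-fold (log2 3.65, SE 0.14, adjusted p = 1.756e-07), and it was still called with the Y-linked covariate (log2 3.44). Trak1, which links mitochondria to kinesin motors, read 8.42, 8.47 and 8.46 in ∆G, 6.30, 6.42 and 6.58 in null and 8.36, 8.38 and 8.47 in WT. It was 4.05-fold higher in ∆G than in null (adjusted p = 2.081e-07; log2 2.12 with the covariate, also called). For this gene ∆G and WT overlapped and null stood alone.

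Dpt, the gene of the matrix protein dermatopontin, read 10.26, 8.93 and 8.47 in ∆G and 6.71, 6.07 and 6.49 in null, against 10.05 to 10.35 in WT. It was 6.95-fold higher in ∆G (adjusted p = 0.00098), although ∆G replicates 2 and 3 lay below all WT arrays. Trim12a, of a family of antiviral ubiquitin ligases, read 7.18, 7.34 and 7.37 in ∆G and 4.28, 4.40 and 4.38 in null. Its WT arrays were split, with 4.32 and 4.33 on replicates 1 and 3 and 7.26 on replicate 2. The difference of Trim12a from null was 7.71-fold (adjusted p = 0.011). With the Y-linked covariate neither Dpt nor Trim12a was called (log2 2.90 and 1.19, limma adjusted p = 0.11 and 0.65). The other genes among the 10 with the largest rise were the enzyme genes Gpx3 and Pla2g7, the phosphoglucomutase family gene Pgm5, the prolactin family gene Prl3a1, and Lrrc15 and Parm1, which encode membrane proteins. They were 3.12-fold to 3.91-fold higher in ∆G. Prl3a1 lost its call without ∆G replicate 1 or 2 (highest adjusted p 0.081). Gpx3, Pgm5, Pla2g7, Prl3a1, Lrrc15 and Parm1 were not called with the Y-linked covariate.

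Among the genes that were lower in ∆G, Glp1r, a receptor for the incretin hormone GLP-1, changed most. Its signal was 5.52, 5.97 and 5.36 in ∆G, 7.61, 8.61 and 7.41 in null and 5.41 to 5.55 in WT. The null arrays stood above all others, at 4.78 times the ∆G level (log2 -2.26, SE 0.25, adjusted p = 0.00058). Prg4, the gene of the joint lubricant lubricin, read 5.49, 5.61 and 5.50 in ∆G and 7.55, 7.43 and 7.61 in null (log2 -2.0, adjusted p = 0.00015). Glo1, which detoxifies methylglyoxal, read 9.09, 8.98 and 9.31 in ∆G and 10.76, 10.73 and 10.56 in null (log2 -1.55, adjusted p = 1.215e-05). Prg4 and Glo1 were also called with the Y-linked covariate, at log2 -2.70 and -1.54, and Glp1r was not (log2 -2.42, limma adjusted p = 0.080). The others were Sostdc1, a secreted BMP and WNT antagonist, the limb regulators Hoxd13 and Tbx4, Coch, the retinol dehydrogenase Dhrs9, and H60b and Raet1d, which encode ligands of the NKG2D receptor of killer cells. Their log2 differences ran from -1.98 to -1.42. Of these, Dhrs9 and H60b were also called with the Y-linked covariate, and the rest were not. Sostdc1, Tbx4 and Raet1d each lost the call without ∆G replicate 1, ∆G replicate 2 or null replicate 1 (highest adjusted p 0.088, 0.079 and 0.14). Sostdc1 lost it without null replicate 3 as well, and Raet1d without null replicate 2 or 3.

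**Figure D1:**
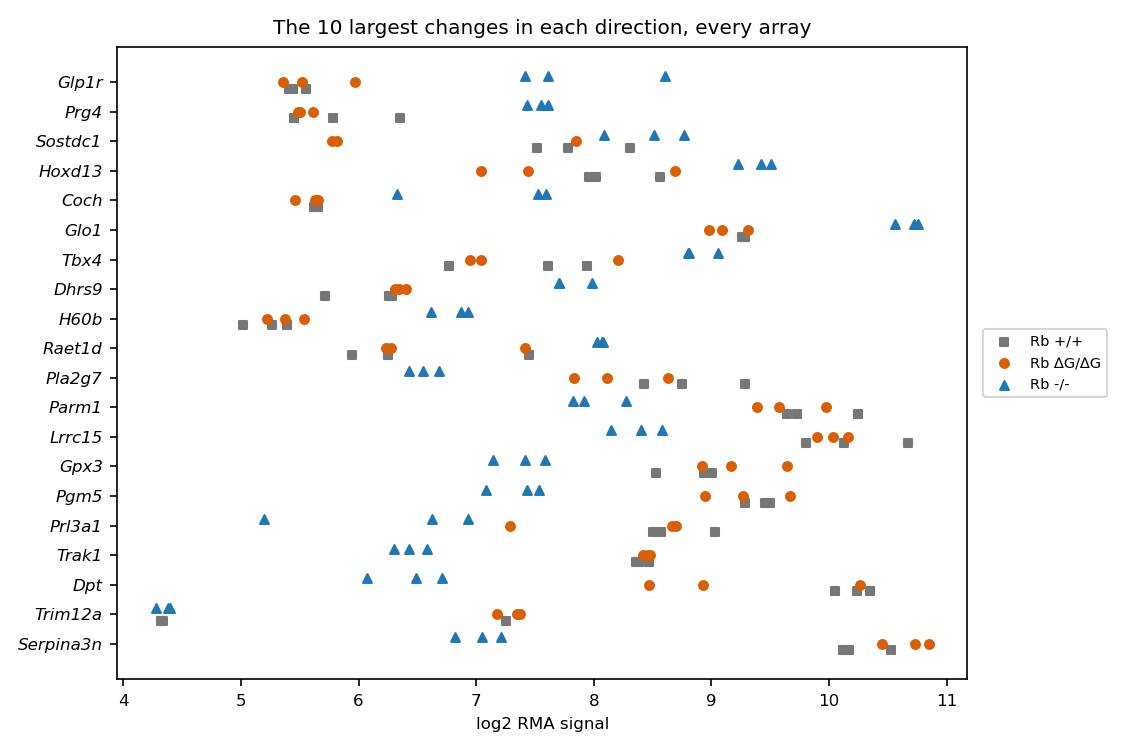
Log2 RMA signal (horizontal axis) on every array for the 10 genes with the largest lower and the 10 with the largest higher signal in ∆G against null. Squares are Rb +/+, circles Rb ∆G/∆G and triangles Rb -/-. Serpina3n and Trak1 have ∆G and WT together and null apart, while the WT arrays of Trim12a fall at 4.32, 7.26 and 4.33.

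Genes that copy DNA were lower in ∆G than in null. In 5 lists of replication genes with 80 measured members in all, 67 were lower, none was higher and all 80 differences were negative, beside 4.24% of all genes called lower. The median log2 difference was -0.56, against -0.0074 over all genes. These lists are textbook E2F programmes whose response in this series was known when they were drawn up, so their direction is no independent evidence. The mean of the 80 genes was 7.65, 7.59 and 7.90 on the ∆G arrays, 8.31, 8.36 and 8.19 on the null arrays and 7.30, 7.0 and 7.13 on the WT arrays. The ∆G arrays lay between the other groups without overlap, and ∆G replicate 3 was nearest to null. The number of lower genes was 28 without ∆G replicate 1, 27 without ∆G replicate 2, 32 without null replicate 1 and 43 without null replicate 2, with medians from -0.56 to -0.49. With the Y-linked covariate the median was -0.51 and 1 gene was called.

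At the origins of replication, 15 of 21 genes of the MCM helicase and its loading were lower. Cdt1, which loads the helicase, read 7.55, 7.58 and 7.87 in ∆G, 8.39, 8.64 and 8.34 in null and 6.97, 6.70 and 6.71 in WT. Its ∆G arrays lay between the other groups, 1.73-fold below null (log2 -0.79, SE 0.11, adjusted p = 0.0021). Gins1, of the helicase activator GINS, and the helicase subunit Mcm6 had log2 differences of -0.77 and -0.70 (adjusted p = 0.0038 and 0.0059). Mcm4 was among the 6 members that did not pass, with 9.16, 9.30 and 9.51 in ∆G and 9.68, 9.63 and 9.53 in null. Among polymerases and fork factors 21 of 25 were lower. Rpa3, a subunit of the single-strand binding protein RPA, read 6.79, 6.64 and 6.91 in ∆G, 7.87, 7.67 and 7.69 in null and 6.58 to 6.61 in WT (log2 -0.96, adjusted p = 0.00019). Here ∆G lay next to WT and null was apart. Prim1, the primase, read 7.60, 7.53 and 7.95 in ∆G, 8.79, 8.78 and 8.63 in null and 6.09 to 6.67 in WT (log2 -1.04, adjusted p = 0.0017), so that ∆G stood clear of both references. Dna2, a nuclease that trims replication intermediates, and the polymerase delta subunit Pold2 differed by -0.97 and -0.83. The lower members of the MCM list were 4 without ∆G replicate 1 or 2, 6 without null replicate 1 and 8 without null replicate 2. Those of the polymerase list were 9 without ∆G replicate 1 or 2, 10 without null replicate 1 and 12 without null replicate 2.

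Supply and chromatin genes followed. In the synthesis of DNA precursors 6 of 7 genes were lower, with a median of -0.81. Tyms, thymidylate synthase, read 8.20, 8.04 and 8.54 in ∆G and 9.26, 9.26 and 9.04 in null (log2 -0.93, adjusted p = 0.0018). Rrm2, the regulated subunit of ribonucleotide reductase, read 9.02, 9.12 and 9.31 against 10.01, 10.39 and 9.75 (log2 -0.90), and Dut, which clears dUTP, differed by -0.81. In each of these genes all ∆G arrays lay below all null arrays. Of 11 genes of replicating chromatin and DNA methylation 10 were lower, with Uhrf1, which guides maintenance methylation, at -0.97, the ATPase gene Atad2 at -0.71 and the helicase gene Hells at -0.64. Of 16 genes of DNA repair and the S-phase checkpoint 15 were lower. They included Fanca of the Fanconi anaemia pathway at -0.98, Mms22l, which acts at stalled forks, at -0.58 and the recombination mediator Brca2 at -0.52. The chromatin list had 3 lower members without ∆G replicate 1 or 2 and 4 without null replicate 1. The repair list had 8 without ∆G replicate 1, 7 without ∆G replicate 2, 8 without null replicate 1 and 9 without null replicate 2. Mms22l was the replication gene still called with the Y-linked covariate (log2 -0.92, adjusted p = 0.046).

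The histone genes expressed during replication were mixed. Of 16 measured, 4 were lower and 2 higher in ∆G, beside 4.24% and 4.46% of all genes, with a median of -0.15. H2bc4 read 9.47, 9.30 and 9.28 in ∆G and 8.64, 8.44 and 8.32 in null (log2 0.88, adjusted p = 0.00078), and the linker histone H1f2 was 0.72 higher. H1f1 and H2ac4 had log2 differences of -1.05 and -1.31. No member was called lower without ∆G replicate 1 or 2 or without null replicate 1 or 3, 1 was called lower without null replicate 2, and 1 was called higher without ∆G replicate 1. Histone genes are near-identical copies, so their probe sets are uncertain.

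Mitotic genes were also lower in ∆G, and here the ∆G arrays disagreed among themselves. Of 88 measured members of 4 lists, 47 were lower, none was higher and 87 differences were negative, beside 4.24% of all genes called lower. The median log2 difference was -0.67, against -0.0074 over all genes. As with the replication lists, earlier results of these data were known when the lists were chosen, so their direction is no independent evidence. The mean of the 88 genes was 7.37, 7.29 and 7.87 on the ∆G arrays, 8.26, 8.14 and 8.07 on the null arrays and 7.61, 7.12 and 7.18 on the WT arrays. ∆G replicates 1 and 2 lay within the WT range and replicate 3 above it, below all null arrays. Without ∆G replicate 3, 79 of the 88 were lower (median -0.87), and without ∆G replicate 1, ∆G replicate 2 or null replicate 1 only 12 each (medians -0.59, -0.56 and -0.61). Without null replicate 2 or 3 the counts were 24 and 28. The median was -0.79 with the Y-linked covariate, under which none was called.

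Among mitotic cyclins, kinases and phosphatases 12 of 26 were lower. Fbxo5, which restrains the anaphase-promoting complex, read 6.77, 6.68 and 7.21 in ∆G, 7.98, 7.77 and 7.90 in null and 6.20 to 6.80 in WT (log2 -0.999, SE 0.17, adjusted p = 0.0043). Cyclin F (Ccnf) was lower by a log2 of -0.91. The checkpoint kinase Bub1b had -1.01 (adjusted p = 0.014), a call lost without ∆G replicate 1, ∆G replicate 2 or null replicate 1 (highest adjusted p 0.066). Cdk1, the mitotic kinase, read 8.16, 7.88 and 8.62 in ∆G and 8.97, 8.94 and 8.68 in null and missed the threshold (log2 -0.64, adjusted p = 0.053). At the kinetochore and centromere 10 of 21 were lower, among them Oip5 at -0.75, which helps load centromeric histone, and Spc25 at -0.74. Cenpk followed at -0.72, a call lost without ∆G replicate 2 or null replicate 1 (highest adjusted p 0.058). The cyclin and kinase list had 2 lower members without ∆G replicate 1, ∆G replicate 2 or null replicate 1, 7 without null replicate 3 and 23 without ∆G replicate 3. The kinetochore list had 3 without ∆G replicate 1, 2 without ∆G replicate 2 or null replicate 1, 6 without null replicate 2 and 19 without ∆G replicate 3.

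The spindle and cytokinesis list had 17 of 27 lower members. Kntc1, which brings the spindle checkpoint complex to kinetochores, read 6.34, 6.37 and 6.81 in ∆G, 7.47, 7.44 and 7.31 in null and 5.90 to 6.33 in WT (log2 -0.90, adjusted p = 0.0031). The kinesin gene Kif15 and the spindle gene Ckap2 had -0.87 and -0.55. Of 14 condensin, cohesin and topoisomerase genes 8 were lower. Ncapg2, of condensin II, read 6.90, 6.90 and 7.58 in ∆G, 8.33, 8.27 and 8.27 in null and 6.76 to 7.26 in WT (log2 -1.16, adjusted p = 0.0024). In both Kntc1 and Ncapg2 ∆G replicate 3 was the highest ∆G array and still lay below every null array. Mki67, the proliferation antigen gene, did not pass, with 8.74, 8.76 and 9.33 in ∆G and 9.79, 9.46 and 9.61 in null (log2 -0.68, adjusted p = 0.082). The spindle list had 3 lower members without ∆G replicate 1, ∆G replicate 2 or null replicate 1, 5 without null replicate 2, 8 without null replicate 3 and 26 without ∆G replicate 3. The condensin list had 4 without ∆G replicate 1 and 5 without ∆G replicate 2, null replicate 1 or null replicate 2.

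**Figure D2:**
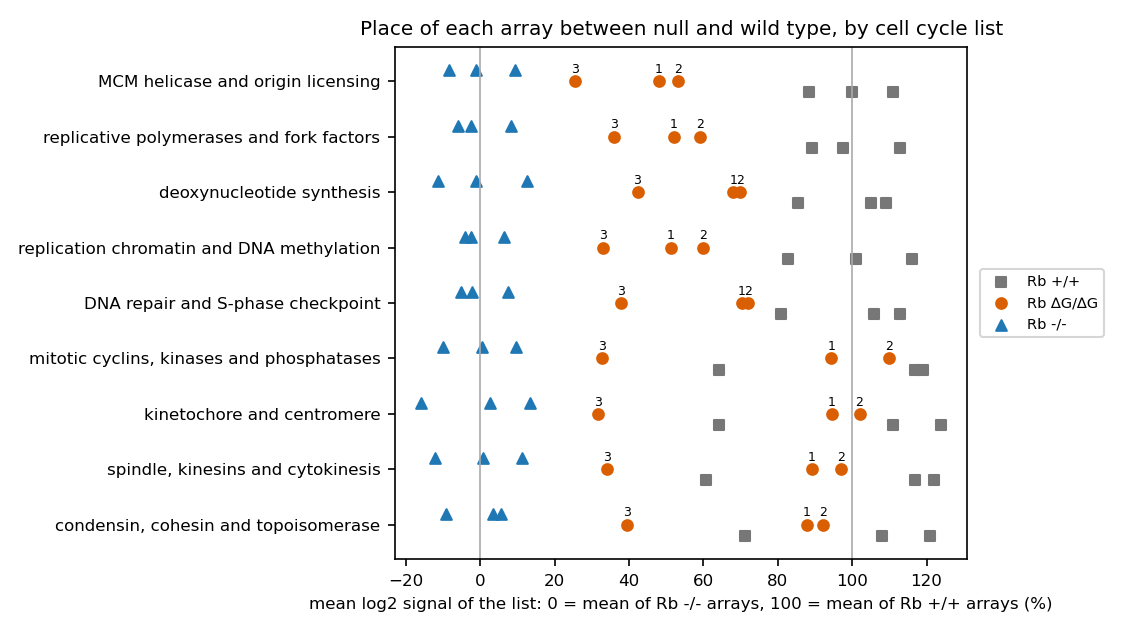
Mean log2 signal of each cell cycle list on each array, on a scale where 0 is the mean of the Rb -/- arrays and 100 that of the Rb +/+ arrays (horizontal axis, %). Numbers mark the ∆G replicates: in the MCM list they lie at 48.1, 53.3 and 25.6, and in the kinetochore list at 94.5, 102 and 31.7.

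To place ∆G between the references, each list mean was put on a scale from null (0%) to WT (100%). Over all replication genes ∆G replicates 1, 2 and 3 lay at 55.5%, 60.9% and 33.7%, and the WT arrays at 86.3%, 113% and 101%. Over all mitotic genes the ∆G arrays lay at 91.7%, 101% and 33.9% and the WT arrays at 64.0%, 122% and 114%. The mean position of ∆G was thus 50.0% for replication and 75.6% for mitosis, or 58.2% and 96.4% without replicate 3, the array on which both programmes lay at about the same place. The distance between replication and mitosis was given by ∆G replicates 1 and 2 and was not tested. Gene by gene, ∆G was tested against the midpoint of WT and null. No replication gene and no mitotic gene passed that test, while 53 of all autosomal genes did (0.277%). The median distance from the midpoint was 0.015 for replication genes and -0.20 for mitotic genes, where a negative value lies on the WT side for genes that are higher in null.

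Of the 53 genes that departed from the midpoint, 35 (0.183%) were higher and 18 (0.0942%) lower. The 5 furthest above it were Serpina3n, Gpx3, Myom1, Trak1 and Crip1, and the 5 furthest below it Prg4, Cdh6, Glo1, Tfrc and Crabp2. Crip1, a small LIM-domain protein gene, read 10.54, 10.48 and 10.40 in ∆G, 9.63, 9.47 and 9.49 in null and 9.64, 9.08 and 9.36 in WT, so ∆G lay above both references (1.03 above the midpoint, adjusted p = 0.0028). Cdh6, a cadherin gene, lay below both, with 7.45, 7.69 and 7.86 in ∆G, 8.78, 8.57 and 9.13 in null and 8.46, 8.49 and 8.11 in WT (-0.92, adjusted p = 0.019). Against WT alone Cdh6 was not called (log2 -0.68, limma adjusted p = 0.0755). Tfrc, the transferrin receptor gene, read 6.28, 6.47 and 6.59 in ∆G, within the WT range, and 7.71 to 7.93 in null (-0.75, adjusted p = 0.026). The count was 7 without ∆G replicate 1, 5 without ∆G replicate 2, 16 without null replicate 1, 102 without null replicate 2, 35 without null replicate 3 and 486 without ∆G replicate 3, so it turned on single arrays.

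Promoters were read for the genes with the lowest p in the replication lists (Rpa3 and Dna2) and in the mitotic lists (Ncapg2 and Kntc1), to show which of the elements of E2F and DREAM their letters hold. Each window runs from 250 bases before to 50 after the RefSeq start in GRCm38.p6, 5′ to 3′ on the gene's strand. The windows are chr6:8259092-8259391 on the minus strand for Rpa3, and on the plus strand chr10:62946779-62947078 for Dna2, chr12:116405186-116405485 for Ncapg2 and chr5:123749476-123749775 for Kntc1. Capitals mark the E2F motif (TTTCCCGC or TTTGGCGC), the CHR motif (TTTGAA or TTCGAA) and CCAAT, each searched on both strands.
Rpa3: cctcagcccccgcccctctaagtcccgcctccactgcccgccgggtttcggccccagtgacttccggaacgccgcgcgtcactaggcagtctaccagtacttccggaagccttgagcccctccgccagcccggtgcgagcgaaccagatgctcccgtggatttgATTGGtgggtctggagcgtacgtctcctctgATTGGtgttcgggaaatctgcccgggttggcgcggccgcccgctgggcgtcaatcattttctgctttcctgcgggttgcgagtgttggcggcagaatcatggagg
Dna2: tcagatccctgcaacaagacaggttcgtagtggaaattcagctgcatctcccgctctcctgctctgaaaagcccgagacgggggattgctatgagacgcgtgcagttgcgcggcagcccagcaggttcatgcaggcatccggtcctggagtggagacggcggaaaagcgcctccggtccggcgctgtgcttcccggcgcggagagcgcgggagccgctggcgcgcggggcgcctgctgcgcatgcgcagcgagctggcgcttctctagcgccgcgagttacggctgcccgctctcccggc
Ncapg2: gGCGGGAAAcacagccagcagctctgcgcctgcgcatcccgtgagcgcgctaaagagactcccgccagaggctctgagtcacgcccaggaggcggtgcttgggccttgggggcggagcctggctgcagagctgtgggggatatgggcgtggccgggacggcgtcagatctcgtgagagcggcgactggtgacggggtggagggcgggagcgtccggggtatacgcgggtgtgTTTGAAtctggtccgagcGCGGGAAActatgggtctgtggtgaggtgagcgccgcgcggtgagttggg
Kntc1: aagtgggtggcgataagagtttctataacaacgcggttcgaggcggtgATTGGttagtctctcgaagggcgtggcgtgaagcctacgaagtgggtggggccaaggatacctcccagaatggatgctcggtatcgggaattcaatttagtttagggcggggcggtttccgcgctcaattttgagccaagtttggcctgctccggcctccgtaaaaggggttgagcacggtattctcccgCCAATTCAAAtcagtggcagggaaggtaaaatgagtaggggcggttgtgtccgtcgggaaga
Rpa3 held 2 CCAAT motifs on the opposite strand and Dna2 no match, which says only that these letters are not in the window. Ncapg2 held 2 E2F motifs and a CHR motif 18 bases before the start. Kntc1 held a CHR motif beside a CCAAT just before the start, where the letters of both overlap, and a further CCAAT upstream.

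Across the 14959 autosomal genes with a promoter in the RefSeq table, 2.30% of windows held the E2F motif and 6.68% held both a CHR motif and CCAAT. In the replication lists the shares were 26.2% and 12.3% of 65 promoters, and in the mitotic lists 10.4% and 53.2% of 77. Among the 641 genes lower in ∆G with a promoter the shares were 7.18% and 12.3%, and among the 614 higher genes 0.651% and 6.19%. Read the other way, 46 of the 344 genes with an E2F motif (13.4%) were lower in ∆G and 4 (1.16%) higher. Of the 1000 genes with both a CHR motif and CCAAT, 79 (7.90%) were lower and 38 (3.80%) higher, and of the 13640 with neither kind 525 (3.85%) were lower and 572 (4.19%) higher. The genes with an E2F motif had a median log2 difference of -0.058, so most genes with these letters differed little. A match of letters is a description and not a binding site.

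**Figure D3:**
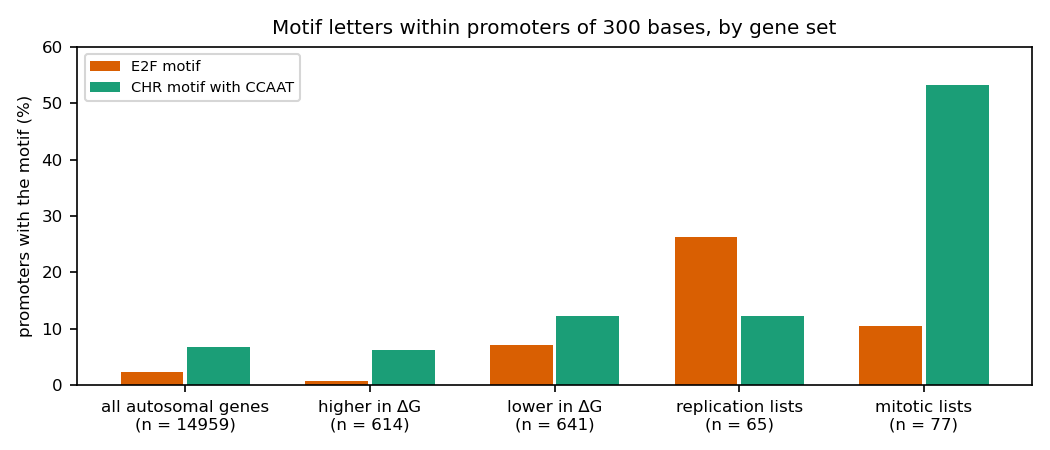
Share of promoters (vertical axis, %) that hold the E2F motif or a CHR motif together with CCAAT, for all autosomal genes, the genes higher or lower in ∆G than in null, and the replication and mitotic lists. The E2F share is 26.2% in the replication lists and the share with CHR and CCAAT 53.2% in the mitotic lists.

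Of 13 genes of the RB and E2F proteins 3 were lower in ∆G, among them both atypical repressor E2Fs, and Rb1 was higher. Over all genes 4.24% were called lower and 4.46% higher. E2f8 read 6.86, 6.74 and 7.29 in ∆G, 8.15, 8.25 and 8.06 in null and 6.36 to 6.88 in WT (log2 -1.19, SE 0.15, adjusted p = 0.0011). Its ∆G arrays lay within or above the WT range and below every null array. E2f7 was lower by -0.77, a call lost without ∆G replicate 1 (adjusted p = 0.053). Rbl1, which encodes p107, read 7.97, 8.19 and 8.19 in ∆G, 8.51, 8.69 and 8.51 in null and 6.57 to 7.10 in WT, and passed narrowly (log2 -0.45, adjusted p = 0.045). Without ∆G replicate 1 E2f8 alone was called lower. Among members that did not pass, E2f1, E2f3 and Rbl2, the gene of p130, had differences of -0.05, -0.11 and -0.11.

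Of 17 G1 cyclins, kinases and inhibitors, 4 were lower and 1 was higher, beside 4.24% and 4.46% of all genes. Ccne2, cyclin E2, read 7.03, 7.02 and 7.34 in ∆G, 8.43, 8.33 and 7.90 in null and 6.04 to 6.73 in WT (log2 -1.09, adjusted p = 0.0039). Its partner Cdk2 differed by -0.52 and the CDK4 and CDK6 inhibitor gene Cdkn2c by -1.09 (adjusted p = 0.0044 and 0.0028). The 3 genes had ∆G arrays below all null arrays. The inhibitor gene Cdkn1c, which is imprinted, was higher in ∆G, with 9.09, 9.04 and 9.03 against 8.24, 7.96 and 8.78 (log2 0.73, adjusted p = 0.028). Cyclin D1 (Ccnd1) and cyclin E1 (Ccne1) both had -0.28 and did not pass (adjusted p = 0.24 and 0.11). Cdkn1c lost its call without ∆G replicate 1 or 2 or null replicate 1 or 2.

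The list of p53 targets and the list of apoptosis genes linked to E2F held no call, where 8.70% of all genes were called in either direction. In lists this short, no call is near that share and does not set them apart. None of 19 p53 target genes and none of 10 apoptosis genes linked to E2F passed in limma, with 2 in each list at an unadjusted p under 0.05 and medians of -0.018 and -0.050. Bok, a pore-forming BCL2 relative, read 7.44, 7.32 and 7.41 in ∆G and 7.15, 7.26 and 6.94 in null (log2 0.27, adjusted p = 0.082), without overlap. Bid differed by -0.32 (adjusted p = 0.084) and Casp8 by -0.09, and Bid was called lower without ∆G replicate 3 or null replicate 3 and Bok higher without null replicate 2. In the p53 list 1 gene was called lower without ∆G replicate 3 or null replicate 3. In quiescence and FOXO response genes 2 of 18 were higher and 2 lower, beside 4.46% and 4.24% of all genes. Pik3ip1, a brake on PI3 kinase and FOXO target, was 0.53 higher (adjusted p = 0.0056), while Foxo1 itself was lower (log2 -0.60, adjusted p = 0.014, lost without ∆G replicate 1, ∆G replicate 2 or null replicate 1, highest 0.062). No member was called lower without those arrays, and 1 was called higher without ∆G replicate 1 or 2 or null replicate 1 or 2. In the immediate early and serum response list 3 of 22 were lower and none higher, with Egr3 at -0.43, Fosl1 at -0.76 and Egr2 at -0.69. Fosl1 lost its call without ∆G replicate 1, ∆G replicate 2 or null replicate 1 and Egr2 without ∆G replicate 1 or 2 or any null array (highest adjusted p 0.093 and 0.12). The list had 1 lower call without ∆G replicate 1, ∆G replicate 2 or null replicate 1, and 9 without ∆G replicate 3.

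The matrix that fibroblasts secrete was higher in ∆G than in null for part of each list. Of 20 collagen genes 11 were higher and 1 lower (median 0.33), of 25 proteoglycans, fibulins and matricellular proteins 6 were higher (0.47), and of 18 matrix proteases and inhibitors 5 (0.36), beside 4.46% of all genes called higher. Dcn, the collagen-binding proteoglycan decorin, read 11.85, 11.86 and 11.48 in ∆G, 10.64, 10.31 and 10.77 in null and 11.79 to 12.08 in WT. It was 2.22-fold higher in ∆G (log2 1.15, SE 0.14, adjusted p = 0.00073), with no overlap with null. Col1a1, of type I collagen, read 12.54, 12.73 and 12.46 in ∆G and 12.17, 12.24 and 12.05 in null (log2 0.42, adjusted p = 0.026). Col4a1 of basement membrane and Col16a1 were each about 0.33 higher, a call lost for both without ∆G replicate 1 and for Col16a1 also without ∆G replicate 2 or null replicate 1 or 3 (highest adjusted p 0.055 and 0.070). Col5a3 went the other way, with 7.10, 7.08 and 7.15 in ∆G and 7.76, 7.65 and 7.64 in null (log2 -0.57, adjusted p = 0.00092). The cysteine protease cathepsin K (Ctsk) and Mmp23 were 0.78 and 1.03 higher, Mmp23 not without ∆G replicate 1 (adjusted p = 0.051).

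The collagen count rested on single arrays. It was 1 higher gene without ∆G replicate 1, 1 without ∆G replicate 2, 1 without null replicate 1 and 2 without null replicate 3, while the median stayed between 0.28 and 0.36 with each ∆G or null array left out. Among proteases, 3 were called without ∆G replicate 1, null replicate 1 or null replicate 3. With the Y-linked covariate no gene of the 3 lists was called, and the medians were 0.21, 0.063 and -0.040. WT replicate 3, the WT array with the sex pattern of null, had the lowest mean of the WT arrays in the proteoglycan list, at 10.92 against 11.22 and 11.26.

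Contractile genes of smooth muscle, which fibroblasts express as myofibroblasts, were higher in ∆G for 7 of 16 members (median 0.51) and lower for none. Over all genes 4.46% were called higher. Cnn1, calponin, read 10.13, 10.04 and 9.88 in ∆G, 8.76, 8.93 and 7.98 in null and 9.0 to 9.67 in WT (log2 1.46, SE 0.22, adjusted p = 0.0028). For Cnn1 the ∆G arrays lay above WT as well as above null, but the difference from WT was not called (log2 0.66, limma adjusted p = 0.24). Mylk, myosin light chain kinase, and Itga8, integrin alpha 8, were 1.10 and 1.07 higher. Acta2, the gene of smooth muscle actin, read 12.52, 12.79 and 12.45 in ∆G and 12.12, 12.70 and 11.62 in null and did not pass (log2 0.44, adjusted p = 0.32). The list's mean put the ∆G arrays at 153%, 164% and 108% of the way from null to WT, and WT replicate 3 at 36.7%. The count was 3 without ∆G replicate 1, ∆G replicate 2 or null replicate 3 and 4 without null replicate 1. With the Y-linked covariate the median was 0.096 and none was called.

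In the insulin-like growth factor system 6 of 14 genes were higher and 1 lower, beside 4.46% and 4.24% of all genes. Igf1 read 10.69, 10.30 and 9.96 in ∆G and 9.34, 9.24 and 9.52 in null (log2 0.95, adjusted p = 0.0035). The binding protein genes Igfbp3 and Igfbp6 were 0.91 and 0.78 higher, while Igfbp5 was lower, at 9.92, 9.81 and 9.92 against 10.62, 10.24 and 10.76 (log2 -0.66, adjusted p = 0.023). Binding proteins thus moved in opposite directions, and Igf2 had a difference of 0.04. The count was 4 higher without null replicate 1, and the list held no lower call without ∆G replicate 1, ∆G replicate 2, null replicate 1 or null replicate 3. The list's median was 0.21, and 0.27 with the Y-linked covariate. Of 21 growth factors and their receptors 2 were higher and 1 was lower, beside 8.70% of all genes called in either direction. The lower one was Met, the receptor gene of hepatocyte growth factor (log2 -0.47, adjusted p = 0.0098). No member of that list was called higher without ∆G replicate 1, null replicate 1 or null replicate 2, 1 without ∆G replicate 2 or null replicate 3, and 5 without ∆G replicate 3.

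Of 24 TGF-beta and BMP genes 3 were lower and 1 higher, where 4.24% and 4.46% of all genes were, and no member was called without ∆G replicate 1, ∆G replicate 2, null replicate 1 or null replicate 3. The receptor gene Tgfbr2 read 9.77, 9.83 and 9.84 in ∆G and 10.16, 10.15 and 10.23 in null (log2 -0.37, adjusted p = 0.017). Of 16 WNT antagonists and targets 4 were higher and Sostdc1 was lower. The antagonist genes Sfrp1 and Dkk3 were 0.83 and 0.47 higher, and their calls were lost without null replicate 1 or 2, for Sfrp1 also without ∆G replicate 1 or 2 and for Dkk3 without null replicate 3 (highest adjusted p 0.098 and 0.081). The higher count was 1 without ∆G replicate 1 or 2, 0 without null replicate 1 or 2 and 2 without null replicate 3.

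**Figure D4:**
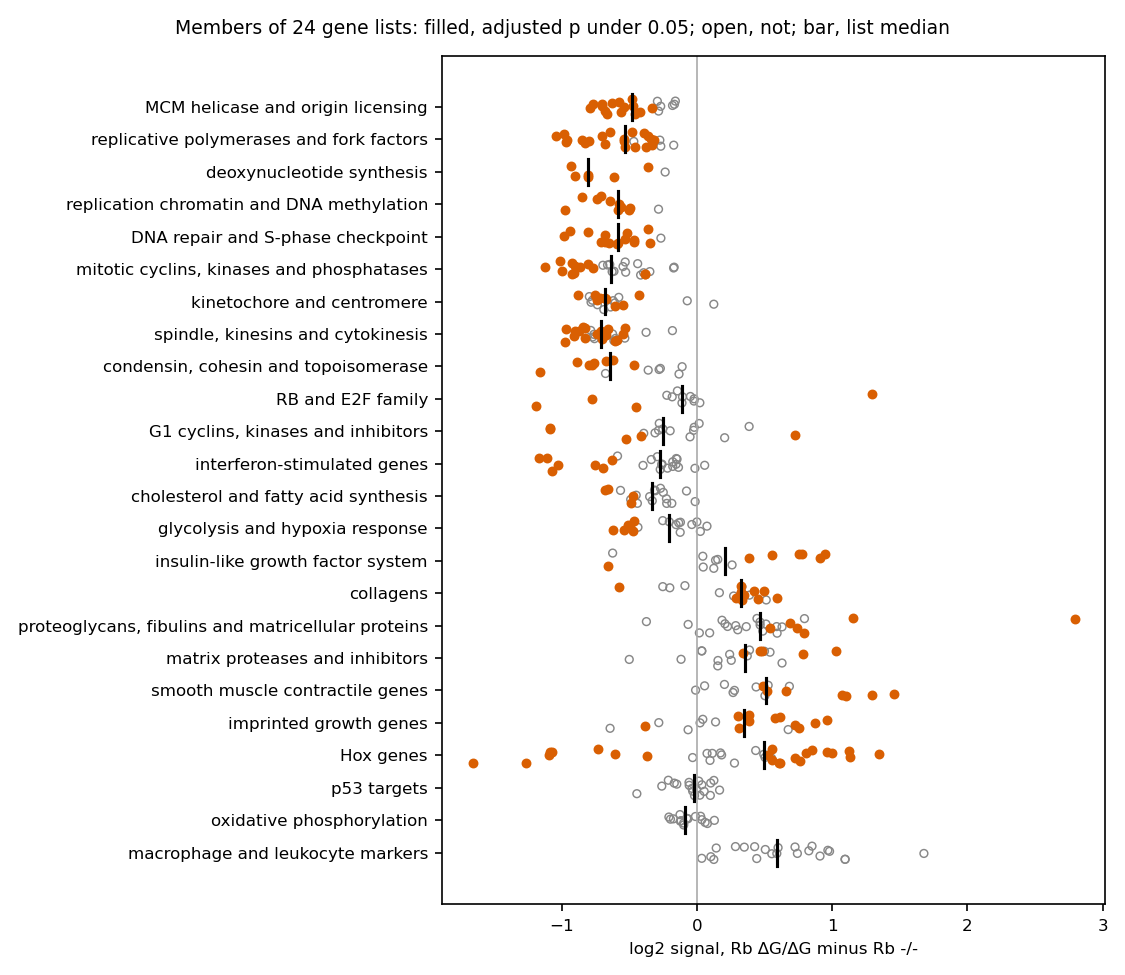
Log2 difference of ∆G minus null (horizontal axis) for every measured member of 24 gene lists. Filled circles passed an adjusted p of 0.05, open circles did not, and black bars are list medians, which run from -0.81 in deoxynucleotide synthesis to 0.60 in the macrophage markers, where no member passed.

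Of 19 genes of cholesterol and fatty acid synthesis 4 were lower and all 19 differences were negative (median -0.33), beside 4.24% of all genes called lower. The fatty acid enzyme gene Acaca and the sterol enzyme genes Idi1 and Lss had -0.49, -0.68 and -0.65, and all 3 calls were lost without ∆G replicate 1 or null replicate 1 (highest adjusted p 0.063, 0.095 and 0.11). No member was called without ∆G replicate 1 or null replicate 1, 1 without ∆G replicate 2 or null replicate 2 and 14 without ∆G replicate 3. Of 17 glycolysis and hypoxia genes 6 were lower, beside the same 4.24%. Pdk1, of a kinase that inhibits pyruvate dehydrogenase, read 6.92, 6.82 and 6.82 in ∆G, 7.41, 7.53 and 7.49 in null and 7.11 to 7.30 in WT (log2 -0.62, SE 0.07, adjusted p = 0.00077). Its ∆G arrays lay below every array of both references, but the difference from WT was not called (limma adjusted p = 0.063). Pfkl, of phosphofructokinase, and the carbonic anhydrase gene Car9 had -0.54 and -0.49, and the list had 3 lower calls without ∆G replicate 2. None of 16 oxidative phosphorylation genes passed in limma, none had an unadjusted p under 0.05, and the median was -0.086. The stress list had 1 call among 20, beside 8.70% of all genes called in either direction. It was the chaperone gene Pdia4 (log2 0.30, adjusted p = 0.043), lost without WT replicate 1 or 2, ∆G replicate 1 or 2 or any null array (highest 0.16).

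Of 23 interferon-stimulated genes 7 were lower and 22 differences were negative (median -0.27), beside 4.24% of all genes called lower. Irf7, the regulator of the type I response, read 6.59, 6.66 and 6.66 in ∆G, 7.29, 7.21 and 7.31 in null and 6.71 to 6.96 in WT (log2 -0.63, adjusted p = 0.00091). Usp18 and Rtp4 had -1.07 and -1.11 (adjusted p = 0.0029 and 0.0033). All 3 genes had ∆G arrays below every null array, where 27.1% of all genes had no overlap in either direction. Between 6 and 9 members were lower with each ∆G or null array left out, and the median with the Y-linked covariate was -0.21 with no call. Among 26 chemokines, cytokines and complement genes 4 were lower and 1 higher, beside 4.24% and 4.46% of all genes. The complement inhibitor gene Serping1 read 9.59, 9.62 and 8.91 in ∆G and 8.06, 8.04 and 8.63 in null (log2 1.13, adjusted p = 0.0057), and the neutrophil chemokine gene Cxcl5 had -1.18. Ccl5 was lower as well (log2 -0.53, lost without ∆G replicate 2, adjusted p = 0.056). The list had 2 lower calls without ∆G replicate 1 or null replicate 1, and 1 lower and 4 higher without ∆G replicate 2.

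Hox genes record position along the body and limb axes. Of 33 measured 14 were higher and 8 lower, beside 4.46% and 4.24% of all genes, with a split by place in the clusters. In Hoxa the 4 genes numbered 9 to 13 were lower and none of the 6 with lower numbers passed, and in Hoxd 4 of 5 genes numbered 9 to 13 were lower and 3 of 4 with lower numbers higher. In Hoxb 6 of 7 genes were higher, and in Hoxc 5 of 7, with none lower. The split was chosen after the values were seen.

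Hoxd13, the most distal limb gene of its cluster, read 7.04, 7.44 and 8.69 in ∆G, 9.50, 9.22 and 9.42 in null and 7.96 to 8.56 in WT (log2 -1.66, SE 0.33, adjusted p = 0.010). ∆G replicate 3 was nearer to null than the other ∆G arrays, which lay below WT. Hoxa13 showed the same order, with 6.11, 6.24 and 7.38 in ∆G and 8.06, 7.66 and 7.81 in null (log2 -1.27). Hoxd4 read 7.61, 7.17 and 6.89 in ∆G, 5.84, 5.83 and 5.96 in null and 7.29 to 7.71 in WT (log2 1.35, adjusted p = 0.00073), and Hoxc8 and Hoxb9 were 1.12 and 0.85 higher. For these genes ∆G lay with or near WT. The higher and lower counts were 10 and 4 without ∆G replicate 1 or null replicate 1, 12 and 4 without ∆G replicate 2, and with the Y-linked covariate 1 and 0.

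Other regulators of position were split too, with 5 of 23 higher and 3 lower, beside 4.46% and 4.24% of all genes. Tbx4, a hindlimb factor, read 6.95, 7.04 and 8.21 in ∆G and 9.06, 8.80 and 8.81 in null. Pitx1, which acts above Tbx4 in the hindlimb, read 6.14, 6.28 and 6.75 against 7.15, 7.13 and 7.25 (log2 -0.79, adjusted p = 0.0043), and the forelimb factor Tbx5 had -0.65. The homeobox genes En1 and Emx2 were 0.65 and 0.57 higher (adjusted p = 0.00095 and 0.0031). The list had 8 lower calls without ∆G replicate 3, and 2 without ∆G replicate 1, ∆G replicate 2 or null replicate 1.

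**Figure D5:**
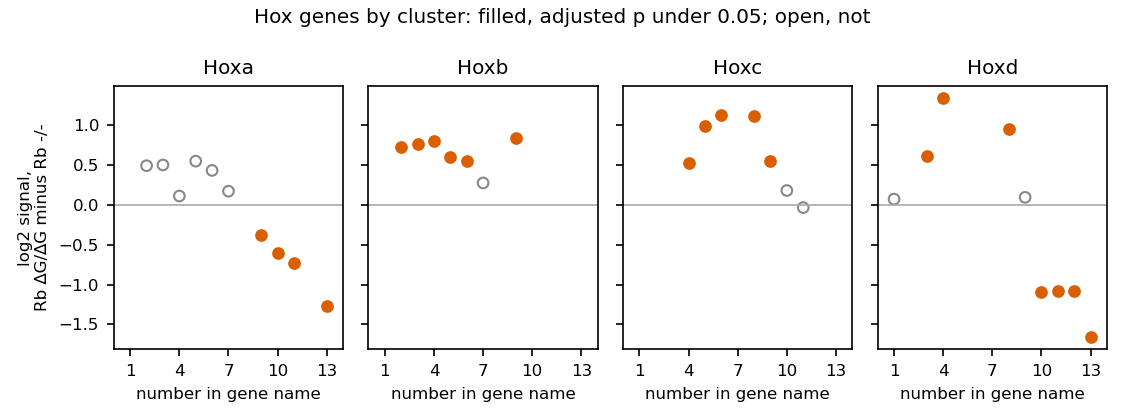
Log2 difference of ∆G minus null (vertical axis) for the measured Hox genes, by cluster (panels) and number in the gene name (horizontal axis). Filled circles passed an adjusted p of 0.05, and Hoxa and Hoxd fall below 0 at the high numbers, to -1.27 and -1.66.

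Imprinted growth genes, which are read from a single parental copy, were higher in ∆G for 10 of 18 members and lower for Dio3. Over all genes 4.46% were called higher and 4.24% lower. The list's median was 0.35, and 0.33 with the Y-linked covariate. Rian and Meg3, noncoding RNAs of the Dlk1 to Dio3 domain on chromosome 12, had the lowest p of the list. Meg3 read 11.31, 11.45 and 10.81 in ∆G, 10.26, 10.32 and 10.38 in null and 11.25 to 11.49 in WT (log2 0.87, adjusted p = 0.0036). Rian read 9.13, 8.91 and 8.49 in ∆G and 7.95, 7.69 and 8.02 in null (log2 0.96). With the Y-linked covariate Meg3 and Rian were not called (log2 0.63 and 0.95, limma adjusted p = 0.33 and 0.18). ∆G replicates 1 and 2 lay within the WT range for Meg3 and above it for Rian, and replicate 3 lay below it for both RNAs. The higher count was 5 without ∆G replicate 1, 4 without ∆G replicate 2, 4 without null replicate 1 and 6 without null replicate 2.

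The same domain holds a dense cluster of microRNA genes, and it was examined as a whole after its values were seen. Of 47 measured genes from Dlk1 to Dio3, 36 were higher in ∆G and 1 was lower, and of its 40 microRNA genes 31 were higher and none lower (median 0.73). The domain was not counted with arrays left out or with the Y-linked covariate. Of the 218 other autosomal microRNA genes 13 were higher and 2 lower (6.88%), and of the 605 other genes on chromosome 12, 26 were higher and 36 lower (10.2%). The mature arms of the 3 genes with the lowest p, and the arm of Mir379 that shares a seed with Mir411, are shown 5′ to 3′ from RefSeq (GRCm38.p6), with the seed, bases 2 to 8, in capitals.
miR-411-5p: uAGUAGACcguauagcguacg
miR-411-3p: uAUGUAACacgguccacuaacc
miR-379-3p: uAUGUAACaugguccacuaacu
miR-382-5p: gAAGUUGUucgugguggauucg
miR-382-3p: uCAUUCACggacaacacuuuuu
miR-154-5p: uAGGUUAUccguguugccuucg
miR-154-3p: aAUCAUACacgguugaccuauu
Over the 31 called genes, all with a sequence, the 60 mature arms held 59 different seeds, and AUGUAAC was the single seed that 2 of them shared. Mir411 read 6.41, 6.55 and 6.02 in ∆G, 5.35, 5.06 and 5.16 in null and 6.14 to 6.53 in WT (log2 1.14, adjusted p = 0.0010). Mir382 and Mir154 were 1.07 and 0.97 higher. All their ∆G arrays lay above all null arrays. The probe sets are named by gene and do not separate the arms or mature RNA from its precursor.

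Markers of other cell types were read to see what else the cultures held. In bulk RNA, fewer cells of a type and less RNA per cell cannot be told apart. Macrophage and leukocyte markers gave no call among 22 in limma, beside 8.70% of all genes called in either direction. Of these markers 9 had an unadjusted p under 0.05, but all 22 differences were positive, with a median of 0.60. Their mean was 7.04, 6.56 and 5.80 on the ∆G arrays, 5.97, 5.62 and 5.91 on the null arrays and 6.5, 6.10 and 5.48 on the WT arrays, so ∆G replicates 1 and 2 were the highest of all and ∆G replicate 3 lay within the null range. The defining markers Csf1r and Adgre1 read 7.39, 6.59 and 5.72, and 6.70, 5.89 and 4.75, on the ∆G arrays, and 5.53 to 6.0 and 4.77 to 5.10 in null. Without ∆G replicate 3, 13 of 22 were called higher, and with the Y-linked covariate the median was -0.17. What part these markers have in the differences of the other lists was not tested.

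Fibroblast markers were present on all arrays, and 6 of 15 were higher in ∆G (median 0.42), beside 4.46% of all genes. Fap read 8.89, 8.64 and 8.25 in ∆G and 7.54, 7.08 and 7.43 in null, and Thy1 11.19, 11.19 and 11.14 against 10.45, 10.45 and 10.31 (adjusted p = 0.00092 and 0.0032). The count was 3 without ∆G replicate 1, ∆G replicate 2 or null replicate 1, and with the Y-linked covariate the median was 0.15 and none was called. Epithelial and endothelial lists each had 1 lower member of 14, the keratin gene Krt19 at -1.17 and the transcription factor gene Erg at -1.01, and the neural list 1 higher of 13, the adhesion gene Ncam1 at 0.78. Single calls among so few members are near the 8.70% called over all genes and say nothing about these lists. None of 17 skeletal muscle genes passed in limma, with 4 at an unadjusted p under 0.05, and 2 were called lower without ∆G replicate 3. In bone and cartilage genes 2 of 14 were lower, beside 4.24% of all genes. They were Comp at -0.77 and Sox9 at -0.65, the latter lost without ∆G replicate 1 or 2 or null replicate 1 or 3 (highest adjusted p 0.086).

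Of 16 adipocyte genes 2 were higher and 2 lower, beside 4.46% and 4.24% of all genes. Lpl, lipoprotein lipase, read 8.63, 8.16 and 7.82 in ∆G and 6.93, 6.89 and 7.26 in null (log2 1.17, adjusted p = 0.0030), while the fatty acid binding protein gene Fabp4 read 5.24, 5.06 and 5.26 against 5.87, 5.87 and 5.91 (log2 -0.70, adjusted p = 0.0019). These 2 genes of fat cells moved in opposite directions. The glucose transporter gene Slc2a4 was 0.45 higher, a call lost without any ∆G array but the third or any null array (highest adjusted p 0.13). Of 15 germ-line genes 1 was lower in ∆G, a share near that of all genes. Zcwpw1, a histone reader of meiosis, read 6.15, 6.01 and 6.20 in ∆G, 6.95 to 7.26 in null and 5.63 to 5.78 in WT (log2 -0.995, SE 0.09, adjusted p = 0.00023). It lay between null and WT on every ∆G array, 1.99-fold below null.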

How the data were processed

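RNA of 9 cultures was read on Affymetrix whole-transcript mouse gene arrays, per the labels' protocols. What was deposited are log2 signals, which the authors made with RMA per the series' design text (background correction, quantile normalization and a summary per probe set). The submitters' processing notes name RMA and affy. No version or build was given in the sources used here. Array medians lay between 6.33 and 6.40. Arrays have no count depth, and their small number limits the precision.

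A platform annotation gave 1 symbol to 21789 of 35512 probe sets, several to 1621 and none to 12101, and 1 had no values. By gene ID 21698 matched RefSeq (GRCm38.p6). Where a gene had more than 1 probe set (999 genes), the brightest by its mean over the 9 arrays stood for it.

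The fit, by limma 3.58.1 in R 4.3.3, took all 9 arrays and gave each genotype its own mean, which left 6 residual degrees of freedom. P-values were adjusted by Benjamini-Hochberg over all 19938 genes in each comparison. ∆G minus null, and ∆G minus the midpoint of WT and null, were tested at an adjusted p of 0.05. The fit was tested on simulated data, drawn separately for each gene and array. They held no shift shared by the genes of an array and no sex pattern, so that test says nothing about either. A list is given by its calls and its median, with no test of the list. Whether a group's arrays hold separate embryos was not stated, so p-values reflect only how far these samples spread, which may be technical.

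Named genes are Rb1, the 10 largest called changes without overlap in each direction, the 5 largest in each direction against the midpoint and in each list up to 3 members, taken by smallest p whether called or not. Predicted genes, clones, microRNAs, small nucleolar RNAs and odour, taste and pheromone receptors were left out of that rule. Other genes named here were chosen after their values were seen, mostly as well-known members of a list, and so were the microRNAs. The groups, lists and rules were chosen with earlier results of these data known. The groups share replicate numbers in the titles, which are not tied to litters by any label, so arrays were not paired.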

Additional observations from a re-analysis of the deposited data

How the results depend on the processing

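The count of 1663 genes was 1751 with median centring, 1859 with repeated quantile normalization, 1649 without the dimmest genes, 1648 with an intensity trend, 1574 in a fit on the 6 arrays and 1678 with probe sets averaged. The Y-linked covariate left 49, with 33 higher and 16 lower. Of the 120 named genes called, 9 kept the call with this covariate and all kept their sign, and 91 kept it without each array in turn. With single arrays left out the count ran from 732 to 2297, that of higher genes from 413 to 1127 and that of lower genes from 319 to 1170. Of the 53 genes against the midpoint, the covariate left 6 (3 higher and 3 lower), and single arrays gave 5 to 486, with 4 to 252 higher and 1 to 234 lower. The 6-array fit gives no midpoint. The replicate block, which takes the numbers in the titles as pairs, gave 1882 calls against null and 143 against the midpoint, 99 higher and 44 lower. Same-numbered arrays had correlations of their deviations from the group means between -0.08 and 0.27, most of them positive. Arrays with different numbers had -0.24 to 0.14, most of them negative. These overlapping ranges do not settle whether the numbers mark pairs. The arrays were left unpaired because no label ties a number to a litter. The cause of these shifts was not tested.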
